A study of Mus musculus with 12 samples.

Results

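Glutathione and NRF2 antioxidant genes are described here in mouse liver and in liver tumors treated with inhibitors of mTOR. The 10 genes, *Gclc*, *Gclm*, *Gss*, *Chac1*, *Gpx3*, *Gpx4*, *Nqo1*, *Hmox1*, *Txnrd1* and *Srxn1*, were chosen by name and were 10 of the 17007 genes in the table. Their roles are in glutathione synthesis and breakdown, in protection from ferroptosis and as targets of NRF2. They were chosen with earlier results of these data known, so their counts beside the shares of all genes are a description. All 10 passed the filter on low values. RNA came from 12 mice in 4 groups of 3. Normal liver was taken from wild-type C57BL/6 mice that received no plasmid and no drug. The other groups carried c-MYC/MCL1/RictorKOTsc2KO tumors, induced in mice homozygous for floxed *Rictor* and *Tsc2* (Rictor fl/fl and Tsc2 fl/fl) by pushing a large volume of c-MYC, MCL1 and pCMV-Cre plasmids through the tail vein, so that the oncogenes and the Cre directed at *Rictor* and *Tsc2* were common to all tumor groups. This route reaches hepatocytes, and the other cells of the tumor keep their *Rictor* and *Tsc2*. By the labels, from day 6 after injection these mice were gavaged 6 days a week for 3 weeks with vehicle, with MLN0128 at 1 mg/kg per day or with everolimus at 1 mg/kg per day, and were sacrificed 3.7 weeks after injection. A treatment of 3 days is also given in the sources for the tumors used for RNA, and the files do not settle which of these lengths applies, so every difference with a drug below is one after either 3 days or 3 weeks. MLN0128 blocks the kinase of mTOR in each of its complexes, whereas everolimus, a relative of rapamycin, acts mainly on the first of them, mTORC1. Mice of both sexes were used and their ages were not given.

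Glutathione is the main small thiol of the cell and is made most actively in the liver. Glutamate-cysteine ligase, with a catalytic subunit (*Gclc*) and a modifier subunit (*Gclm*), joins glutamate to cysteine, glutathione synthetase (*Gss*) adds glycine, and CHAC1 cleaves the finished tripeptide inside the cell. Glutathione peroxidases spend glutathione to remove peroxides, and GPX4 does so for lipid peroxides in membranes, which keeps cells from ferroptosis. The transcription factor NRF2 (*Nfe2l2*), held back by KEAP1, raises many of these genes through antioxidant response elements in their promoters, whereas *Chac1* is a target of ATF4, a factor whose translation rises under amino acid or endoplasmic reticulum stress.

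Promoters are shown first, since genes of this set are known targets of different regulators. RefSeq windows on GRCm38.p6, each from 250 bases before to 50 bases after a transcript start, were found for 8 of the 10 genes, in 13 windows. No window was found for *Gclc* or *Hmox1*. Letters TGACNNNGC, the core of the antioxidant response element, were searched on both strands and were present for 3 of the 8 genes, *Srxn1*, *Gclm* and *Txnrd1*, whereas 14.0% of all genes with a window held them (12.4% of all 32851 windows). Letters TGATGNAA, the core of the C/EBP-ATF response element, were present for *Chac1* alone among the 8 genes, whereas 4.51% of all genes with a window held them (3.97% of windows). A match describes these letters only and does not show that a factor binds there. Sequence further from a start was not searched, so a missing match does not show that a gene lacks the element. The stretches with a match are printed in the direction of the gene, with capitals marking the match, which in each case reads as the motif on the opposite strand. For *Chac1* the match (TGATGCAA on the minus strand) began 193 bases before the start. For *Gclm* it (TGACGGTGC) began 134 bases before the start. For *Txnrd1* (TGACAAAGC) it began 92 bases before the start of a transcript that begins inside the gene. For *Srxn1* (TGACCTAGC) it began at base 29 of the transcript.
Chac1, chr2:119350992-119351241, plus strand: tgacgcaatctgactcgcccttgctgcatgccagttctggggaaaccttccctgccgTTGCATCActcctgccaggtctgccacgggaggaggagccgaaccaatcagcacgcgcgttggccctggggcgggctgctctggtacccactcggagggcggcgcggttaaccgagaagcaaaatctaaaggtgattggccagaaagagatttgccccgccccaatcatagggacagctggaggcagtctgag
Gclm, chr3:122245307-122245556, plus strand: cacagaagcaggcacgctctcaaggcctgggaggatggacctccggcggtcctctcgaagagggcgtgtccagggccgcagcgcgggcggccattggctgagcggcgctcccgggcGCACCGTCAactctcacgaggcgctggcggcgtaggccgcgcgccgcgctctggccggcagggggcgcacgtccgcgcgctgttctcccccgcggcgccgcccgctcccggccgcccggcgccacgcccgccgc
Txnrd1, chr10:82858956-82859205, plus strand: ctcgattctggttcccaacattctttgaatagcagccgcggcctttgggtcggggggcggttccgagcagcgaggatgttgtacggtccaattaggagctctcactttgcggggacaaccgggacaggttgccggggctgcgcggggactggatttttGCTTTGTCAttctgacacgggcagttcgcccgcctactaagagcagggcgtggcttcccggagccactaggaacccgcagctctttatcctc
Srxn1, chr2:152105542-152105571, plus strand: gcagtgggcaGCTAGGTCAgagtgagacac

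Values were the authors' FPKM, fragments per kilobase of exon scaled to the size of the library, and differences are log2 fold changes of FPKM + 1, which understate the change of low genes. Adjusted p-values are from limma's moderated test, adjusted by Benjamini-Hochberg over 14397 genes, and a gene is said to have risen or fallen where that p was under 0.05. The test measures the spread among 3 mice in each group, pooled over the groups. Whole reads could be recovered from the FPKM and numbered 17169842 to 25186095 per library. The deposited FPKM carried a scaling between libraries with factors of 0.585 to 0.595 for the normal livers and of 1.10 to 1.37 for tumors, and with plain library totals in its place the median over all genes moved by 0.56 in vehicle-treated tumors against normal liver and by 0.10 in MLN0128 against vehicle. *Tsc2* was at 4.50 to 5.32 FPKM in the normal livers and lower in every tumor library, at 2.01 to 2.31 in vehicle tumors, 2.81 to 3.96 with MLN0128 and 2.78 to 2.87 with everolimus. *Rictor* was at 1.65 to 2.57 in the normal livers and 1.05 to 1.5 with vehicle, but its 1.65 to 2.21 with MLN0128 and 1.58 to 1.93 with everolimus overlapped normal liver. *Xist*, an RNA of female cells, was at 191 and 155 FPKM in MLN0128 replicates 1 and 2. In the other 10 libraries it was at or under 0.0699. Some results with MLN0128 are therefore also given with the third library alone. That library is then assumed to vary like those of the other groups, and a call lost with it may come from the smaller number of libraries alone. The summed FPKM of 10 hepatocyte markers was 84397 to 103520 in the normal livers, 4523 to 6826 in vehicle tumors, 2121 to 4835 with MLN0128 and 3827 to 8660 with everolimus. All 10 fell from normal liver to vehicle-treated tumors, as did 33.0% of all tested genes. Lymphocyte markers were low in every library, with none of 7 tested and sums of 0.224 to 2.11 FPKM. In such bulk tissue, fewer cells of a type and less RNA per cell cannot be told apart.

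**Figure D1:**
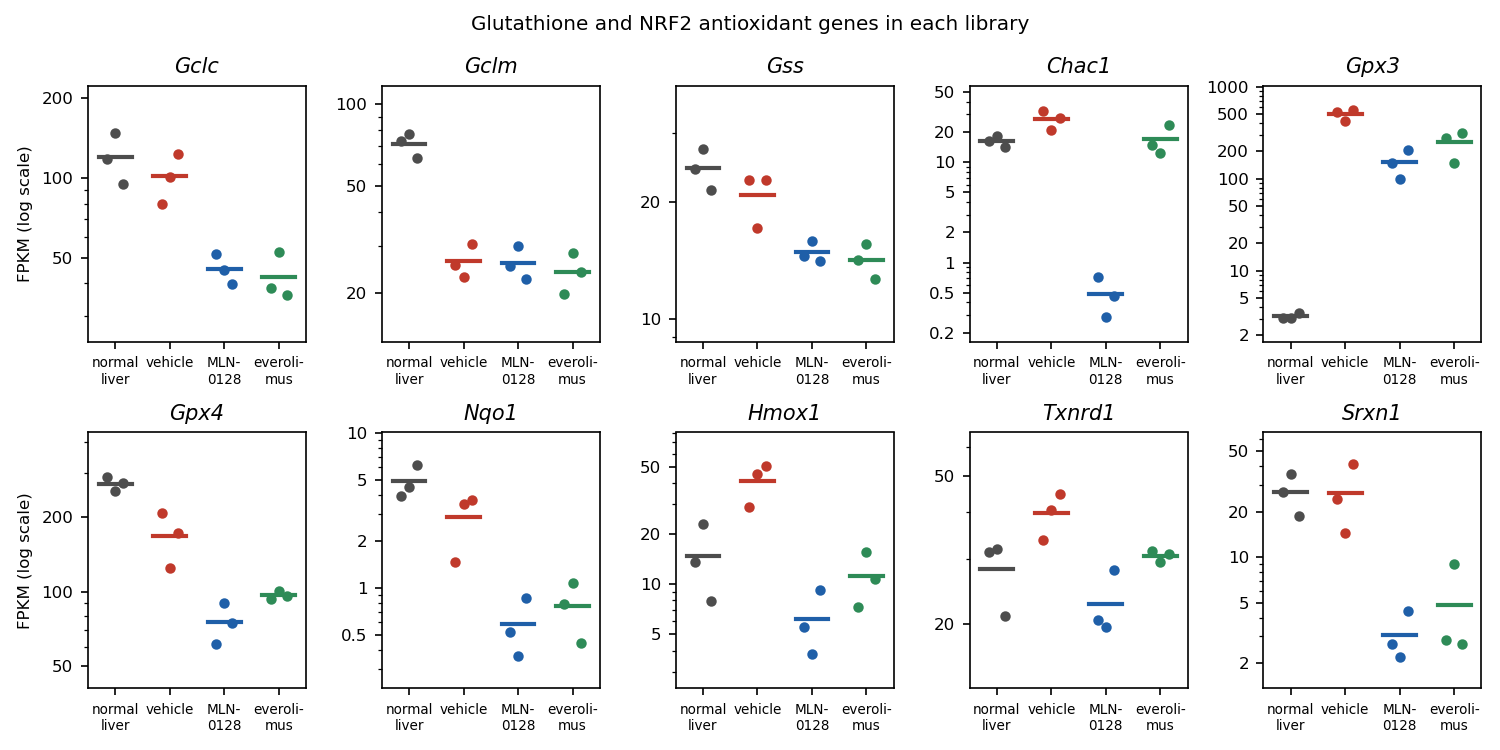
FPKM of each gene (log axis, a separate scale for each panel) in the 3 libraries of normal liver, vehicle, MLN0128 and everolimus, with points for libraries and lines for group means. *Chac1* drops to between 0.287 and 0.710 with MLN0128 alone, whereas *Srxn1*, *Gclc* and *Gpx4* lie lower with both drugs than with vehicle.

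In tumors given MLN0128, 9 of the 10 genes fell against vehicle and none rose, while 17.1% of all tested genes fell. *Chac1* fell furthest, followed on the log2 scale used here by *Srxn1*, *Hmox1* and *Gpx3*, and *Gclm* did not pass the test. By group means *Nqo1*, a low gene, fell further (4.96 times lower) than *Gpx3* (3.32 times lower). The median log2 fold change of the 10 was -1.19, against -0.01 over all tested genes. In 9 of the 10 the 3 MLN0128 libraries all lay below the 3 vehicle libraries, as did 23.4% of all genes. Against a fold change of 1.5 (limma's treat test, adjusted p under 0.05) 4 genes passed, *Chac1*, *Hmox1*, *Gpx3* and *Srxn1*, with 1.65% of all genes lower by that test. That count of 4 rested on single libraries, since it was 1 when either vehicle replicate 3 or MLN0128 replicate 1 was left out, and 2 without MLN0128 replicate 2. A fit with the third MLN0128 library alone leaves 1 library in that group, with its spread taken from the other groups. The number of genes called by that fit is therefore not given. Over the 22 alternatives, that fit among them, *Gclm* alone changed sign against vehicle.

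In tumors given everolimus, 7 of the 10 genes fell against vehicle and none rose, while 6.05% of all tested genes fell. *Srxn1*, *Hmox1*, *Gclc*, *Nqo1*, *Gpx3*, *Gpx4* and *Gss* fell, and *Chac1*, *Txnrd1* and *Gclm* did not pass. The median log2 fold change was -0.92, against 0.03 over all tested genes, and in 8 of the 10 all everolimus libraries lay below all vehicle libraries, as did 14.8% of all genes. The count of 7 became 4 without vehicle replicate 1, 2 without vehicle replicate 3, 2 without everolimus replicate 1 and 3 when only these 2 groups were fitted. None of the 10 passed the treat test, in which 0.570% of all genes were lower. By that test 4 had an unadjusted p under 0.05, for which the share of all genes is not given. With limma's voom on the recovered reads the number past the treat test was also 0. Because MLN0128 and everolimus were compared with the same 3 vehicle libraries, the fall with both is not independent evidence.

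Between the drugs, *Chac1* was the only 1 of the 10 that differed, lower with MLN0128, and 5.54% of all tested genes were lower. The 10 had a median log2 difference of -0.38, against -0.03 over all tested genes. At an unadjusted p under 0.05, 3 of the 10 differed between the drugs, and the share of all genes at that threshold is not given. In 3 genes, *Chac1*, *Gpx4* and *Txnrd1*, all MLN0128 libraries lay below all everolimus libraries, as did 15.2% of all genes. For the remaining 9 genes the 95% interval of the difference is given with each gene. Without everolimus replicate 2, *Gpx3* was also called and the count was 2.

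**Figure D2:**
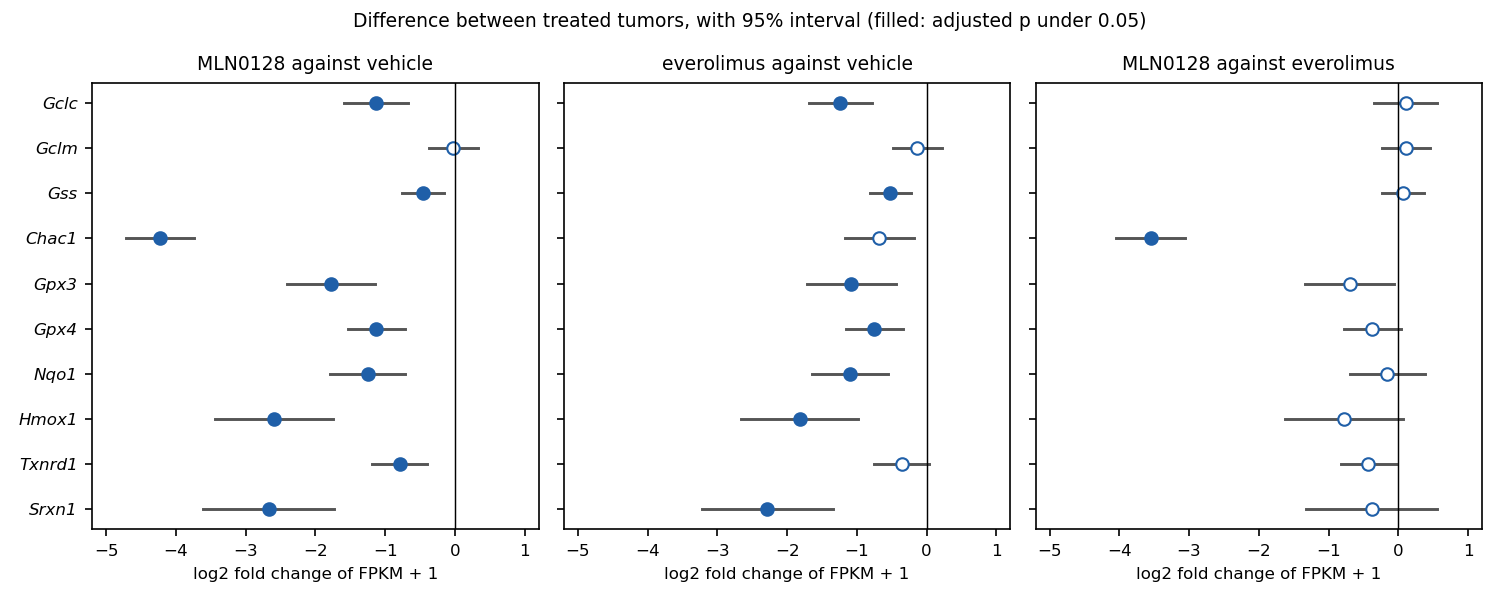
Log2 fold change of FPKM + 1 (point) with its 95% interval (bar) for each gene in MLN0128 against vehicle, everolimus against vehicle and MLN0128 against everolimus, filled where the limma adjusted p was under 0.05. *Chac1* stands at -4.23 with MLN0128 and at -0.68 with everolimus, and the other genes run from -2.67 to -0.02 in the first panel and from -2.29 to -0.13 in the second.

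*Chac1* (ENSMUSG00000027313, chr2:119351229-119354381 on GRCm38) encodes the enzyme that cleaves glutathione. Normal livers held it at 16.4, 18.1 and 14.1 FPKM and vehicle tumors at 32.5, 20.8 and 27.9. It was at 0.710, 0.287 and 0.460 with MLN0128, which corresponds to 33, 10 and 18 reads, and at 14.7, 12.4 and 23.6 with everolimus. The MLN0128 libraries were far below every other library, those of vehicle were above all normal livers, and everolimus overlapped both. Group means were 16.2 ± 2.01 FPKM in normal liver, 27.1 ± 5.89 with vehicle, 0.486 ± 0.213 with MLN0128 and 16.9 ± 5.92 with everolimus (SD, n = 3 each). The mean with vehicle was 55.7 times, and that with everolimus 34.8 times, the mean with MLN0128.

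The fall of *Chac1* with MLN0128 had a log2 fold change of -4.23 (SE 0.224, limma adjusted p = 1.99e-06), and -5.58 with a pseudocount of 0.1. It was -4.24 with the third MLN0128 library alone. MLN0128 differed from everolimus by -3.55 (SE 0.224, 95% interval -4.04 to -3.06, limma adjusted p = 2.42e-05), and by -3.57 with the third MLN0128 library alone. Over the 22 alternatives tried, the first ran from -5.80 to -4.09 and the second from -5.08 to -3.30, and both kept their call in all 22. Everolimus against vehicle gave -0.68 (SE 0.224, limma adjusted p = 0.0765), which passed under 2 alternatives, among them everolimus replicate 3 left out, with -0.93. Vehicle was higher than normal liver by 0.69 (limma adjusted p = 0.0161), and this was no longer called without normal liver replicate 3 or without vehicle replicate 1.

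*Srxn1* (ENSMUSG00000032802, chr2:152105516-152111376) encodes sulfiredoxin, which repairs overoxidized peroxiredoxins. It measured 27.0, 35.3 and 18.7 FPKM in the normal livers, 24.1, 14.4 and 41.1 in vehicle tumors, 2.67, 2.21 and 4.39 with MLN0128, and 2.83, 8.98 and 2.66 with everolimus. All libraries of either drug were below all libraries without a drug, and normal liver and vehicle overlapped. MLN0128 lowered it by a log2 fold change of -2.67 (SE 0.429, limma adjusted p = 0.00111) and everolimus by -2.29 (SE 0.429, limma adjusted p = 0.00790), and these calls held in all 22 alternatives. With the third MLN0128 library alone MLN0128 against vehicle gave -2.23. The drugs differed by -0.38, with a 95% interval of -1.32 to 0.56. Everolimus replicate 2 stood apart at 8.98 FPKM, and without it the difference between the drugs was 0.09.

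*Hmox1* (ENSMUSG00000005413, chr8:75093621-75100589) encodes heme oxygenase 1, which breaks down heme and is also abundant in macrophages that recycle red cells. It measured 13.5, 22.8 and 7.88 FPKM in the normal livers, 28.8, 45.2 and 50.4 in vehicle tumors, 5.55, 3.8 and 9.17 with MLN0128, and 7.26, 15.6 and 10.7 with everolimus. Vehicle libraries were above every other library. The log2 fold change was -2.60 with MLN0128 (SE 0.385, limma adjusted p = 0.000708) and -1.82 with everolimus (SE 0.385, limma adjusted p = 0.0138), of which the second was no longer called without vehicle replicate 3 or without everolimus replicate 1. Between the drugs it was -0.78, with a 95% interval of -1.62 to 0.07 and values from -1.06 to -0.20 over the 22 alternatives. With the third MLN0128 library alone *Hmox1* was at -0.20 between the drugs and at -2.02 against vehicle. Against normal liver, vehicle was higher by 1.51 (SE 0.385, limma adjusted p = 0.00420, treat adjusted p = 0.0521).

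Macrophage markers were read beside *Hmox1*. The summed FPKM of 10 markers of Kupffer cells and macrophages was 362 to 450 in the normal livers, 114 to 159 in vehicle tumors, 50.2 to 77.1 with MLN0128 and 88.2 to 236 with everolimus, and no marker was at 0 throughout a group. Of the 10, 9 fell from normal liver to vehicle-treated tumors, where *Hmox1* was higher and 33.0% of all tested genes fell. With MLN0128 4 of the 10 fell against vehicle, and with everolimus 0 did by limma's test, beside 17.1% and 6.05% of all tested genes. The part of these cells in the fall of *Hmox1* with MLN0128 was not tested.

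*Txnrd1* (ENSMUSG00000020250, chr10:82833951-82897712) encodes the cytosolic thioredoxin reductase, a selenoprotein. It measured 31.3, 31.9 and 21 FPKM in the normal livers, 33.7, 40.5 and 44.9 in vehicle tumors, 20.5, 19.6 and 27.9 with MLN0128, and 31.5, 29.3 and 30.8 with everolimus. The order was vehicle, everolimus, normal liver and MLN0128, and in that order no neighbors differed by limma's test. MLN0128 against vehicle, which are not neighbors, differed by -0.79 (SE 0.180, limma adjusted p = 0.00674), and by -0.48, not called at that size, with the third MLN0128 library alone. Everolimus against vehicle gave -0.36 (95% interval -0.75 to 0.03), although the libraries of these groups did not overlap. MLN0128 against everolimus gave -0.43 (95% interval -0.82 to -0.04, limma adjusted p = 0.151). The gene overlaps *Eid3* on its own strand and *Gm38560* on the other strand, and since the strand setting of the counting was not given, reads may be shared with them.

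*Nqo1* (ENSMUSG00000003849, chr8:107388225-107403206), a quinone reductase that is a standard readout of NRF2, was the lowest of the 10 in vehicle-treated tumors. It measured 3.94, 4.50 and 6.23 FPKM in the normal livers, 1.47, 3.48 and 3.70 in vehicle tumors, 0.521, 0.363 and 0.861 with MLN0128, and 0.784, 1.08 and 0.439 with everolimus. Reads were few, 12 to 32 per library with MLN0128 and 17 to 51 with everolimus. It fell with MLN0128 by 1.25 on the log2 scale (SE 0.248, limma adjusted p = 0.00323) and with everolimus by 1.09 (SE 0.248, limma adjusted p = 0.0190). With the third MLN0128 library alone the first was -1.0, not called at that size. The second call was lost without vehicle replicate 2 or 3, without everolimus replicate 1 or 3, or with these 2 groups alone. The drugs differed by -0.16, with a 95% interval of -0.70 to 0.39.

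*Gclc* (ENSMUSG00000032350, chr9:77754535-77794485), the catalytic subunit, measured 118, 148 and 94.8 FPKM in the normal livers and 80.0, 101 and 123 in vehicle tumors. It was at 51.5, 44.7 and 39.7 with MLN0128 and at 38.5, 52.5 and 36.1 with everolimus. Normal liver overlapped vehicle, and every library of either drug was below both. The log2 fold change was -1.13 with MLN0128 (SE 0.208, limma adjusted p = 0.00220) and -1.24 with everolimus (SE 0.208, limma adjusted p = 0.00478), and both calls held in all 22 alternatives. With the third MLN0128 library alone MLN0128 against vehicle gave -1.31. MLN0128 and everolimus differed by 0.11, with a 95% interval of -0.35 to 0.56.

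*Gclm* (ENSMUSG00000028124, chr3:122245557-122270732), the modifier subunit of the same enzyme, passed the test with neither drug. It measured 73.1, 77.9 and 63.1 FPKM in the normal livers, 25.5, 23.0 and 30.4 in vehicle tumors, 25.1, 30 and 22.5 with MLN0128, and 19.8, 28.1 and 24.0 with everolimus. The tumor groups overlapped one another and lay below all normal livers. The log2 fold change against vehicle was -0.02 with MLN0128 (95% interval -0.37 to 0.32), or 0.12 with plain library totals, and -0.13 with everolimus (95% interval -0.48 to 0.22). Between the drugs it was 0.11 (95% interval -0.24 to 0.46). Vehicle was lower than normal liver by a log2 fold change of -1.41 (SE 0.159, limma adjusted p = 1.01e-05, treat adjusted p = 0.000732). That fall was called in all 22 alternatives, with values from -1.53 to -0.49, the last with plain library totals. The gene overlaps *Gm17494* on the other strand, with which reads may be shared.

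*Gss* (ENSMUSG00000027610, chr2:155563181-155592810), the second enzyme of the pathway, varied little. It measured 24.3, 27.3 and 21.5 FPKM in the normal livers, 22.8, 17.1 and 22.7 in vehicle tumors, 14.5, 15.9 and 14.1 with MLN0128, and 14.2, 15.6 and 12.7 with everolimus. Both drugs lay below vehicle without overlap. The log2 fold change was -0.46 with MLN0128 (SE 0.136, limma adjusted p = 0.0246) and -0.52 with everolimus (SE 0.136, limma adjusted p = 0.0350), and each call was lost in 7 of the 22 alternatives, among them vehicle replicate 1 or 3 left out. MLN0128 and everolimus differed by 0.06, with a 95% interval of -0.23 to 0.36. *Acss2* lies across it on the other strand.

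*Gpx4* (ENSMUSG00000075706, chr10:80047166-80056439), the selenoprotein that guards against ferroptosis, measured 290, 255 and 274 FPKM in the normal livers and 207, 124 and 172 in vehicle tumors. It was at 61.6, 90.0 and 74.5 with MLN0128 and at 93.7, 101 and 96.2 with everolimus. The groups formed a descending order without overlap, from normal liver through vehicle and everolimus to MLN0128, in which only the last step missed the test (-0.38, 95% interval -0.78 to 0.03). MLN0128 gave a log2 fold change of -1.13 against vehicle (SE 0.187, limma adjusted p = 0.00128). Everolimus gave -0.75 (SE 0.187, limma adjusted p = 0.0289), which was lost in 6 of the 22 alternatives, including those without vehicle replicate 1 or 3. The step from normal liver to vehicle was -0.73 (limma adjusted p = 0.00432) but 0.20, not called, with plain library totals. The pseudogene *Gpx4-ps2*, a near copy that may take or give reads, was at 5.62 to 27.6 FPKM and was the gene most like *Gpx4* in pattern.

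*Gpx3* (ENSMUSG00000018339, chr11:54902453-54910377), the secreted plasma peroxidase, was the gene of the 10 that differed most between tumor and liver. It measured 3.07, 3.10 and 3.49 FPKM in the normal livers, 524, 424 and 559 in vehicle tumors, 149, 100 and 205 with MLN0128, and 279, 148 and 317 with everolimus. Every tumor library was above every normal liver, vehicle was highest, and the drug groups overlapped each other. The mean with vehicle was 156 times that of normal liver, with a log2 fold change of 6.89 (SE 0.290, limma adjusted p = 7.35e-09), and it was higher in all 22 alternatives. MLN0128 against vehicle gave -1.77 (SE 0.290, limma adjusted p = 0.00119), also called in all 22, with values from -2.02 to -1.28. Everolimus gave -1.08 (SE 0.290, limma adjusted p = 0.0388), which was lost in 9 of the 22, and without everolimus replicate 2 was -0.74. MLN0128 against everolimus gave -0.70 (95% interval -1.33 to -0.06, limma adjusted p = 0.151), with values from -1.03 to -0.20 over the 22 alternatives. The -1.28 against vehicle and the -0.20 between the drugs came with the third MLN0128 library alone. Even in treated tumors *Gpx3* stayed above normal liver, by 5.12 with MLN0128 (limma adjusted p = 5.48e-08) and by 5.81 with everolimus (limma adjusted p = 2.49e-08).

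Vehicle-treated tumors and normal liver were compared to show where these genes stood in tumors given no inhibitor. *Gpx3*, *Hmox1*, *Chac1* and *Txnrd1* were higher in the tumors, and *Gclm*, *Gpx4* and *Nqo1* were lower. *Gclc*, *Gss* and *Srxn1* did not pass, with -0.24, -0.22 and -0.10. That 7 of the 10 were called is close to the 69.0% of all tested genes that were. The median log2 fold change was -0.16, against 0.06 over all tested genes. Libraries did not overlap for the 4 higher and 3 lower genes, where 39.0% and 35.1% of all genes lay wholly above or below. *Gpx3* and *Gclm* passed the treat test, as did 32.7% of all genes. Without normal liver replicate 3, 4 of the 10 were called.

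The scaling decided the direction for several of them. With plain library totals 6 were called higher and 1 lower, in place of 4 and 3. The median over all tested genes moved as well, from 0.06 to 0.62. The share of all genes called under that scaling is not given. *Gclc* then turned from -0.24 to 0.68 and *Gss* from -0.22 to 0.67, and both were called higher. *Gpx4* turned from -0.73 to 0.20, *Nqo1* from -0.64 to 0.09 and *Srxn1* from -0.10 to 0.79, none of them called. *Gpx3*, *Hmox1*, *Chac1*, *Txnrd1* and *Gclm* kept their direction.

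**Figure D3:**
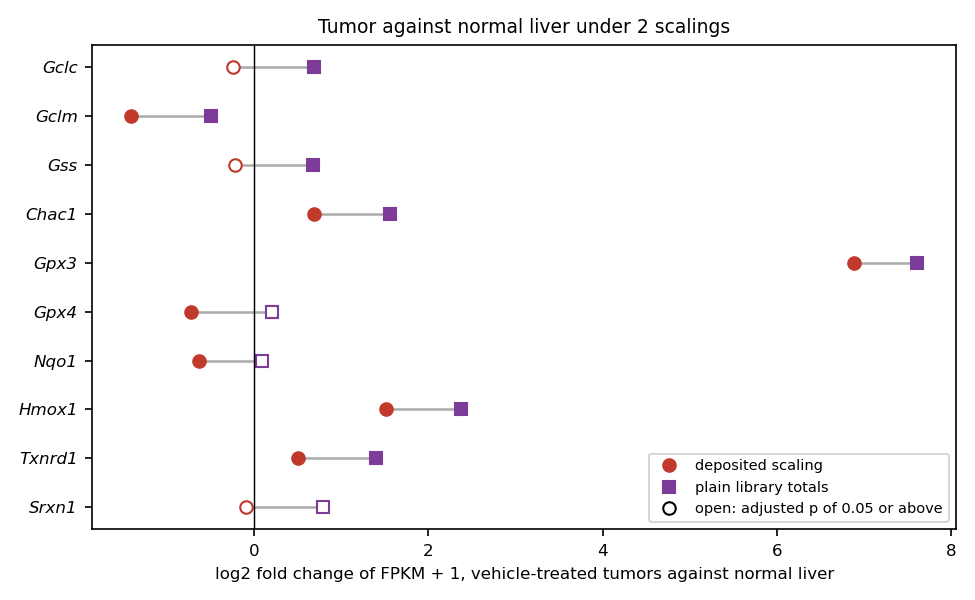
Log2 fold change of FPKM + 1 in vehicle-treated tumors against normal liver for each gene, with the deposited scaling (circles) and with plain library totals (squares), filled where the limma adjusted p was under 0.05. *Gclc*, *Gss*, *Gpx4*, *Nqo1* and *Srxn1* cross 0 between the scalings, whereas *Gclm* stays below it and *Gpx3*, *Hmox1*, *Chac1* and *Txnrd1* stay above.

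Treated tumors were also read against normal liver. With MLN0128 8 of the 10 were lower and 1, *Gpx3*, was higher, where 35.5% and 37.1% of all tested genes were. With everolimus 6 were lower and *Gpx3* was higher, where 34.3% and 35.9% of all genes were. *Chac1* was lower than normal liver with MLN0128 by a log2 fold change of -3.54 (SE 0.224, limma adjusted p = 1.11e-07), whereas with everolimus it differed by 0.01 (95% interval -0.47 to 0.50), or by 0.89, called higher, with plain library totals. *Hmox1* with everolimus differed from normal liver by -0.31, or 0.55 with plain library totals, neither called, and *Txnrd1* by 0.14, not called, or 1.05, called higher, with plain library totals. With plain library totals 3 genes were higher and 4 lower with MLN0128, and 3 were higher and 5 lower with everolimus. The medians over all tested genes were then 0.72 and 0.60, in place of 0.05 and 0.06.

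The wider pathway was described with 8 gene lists, of which 151 genes were tested. These lists were also written with earlier results of these data known, so their counts are a description. With MLN0128 80 of the 151 fell against vehicle and 2 rose, beside 17.1% and 14.9% of all tested genes. With everolimus 26 fell and 3 rose, beside 6.05% and 3.78%. MLN0128 was below everolimus for 33 and above it for 0 by limma's test, beside 5.54% and 3.99%. These last counts leaned on single libraries. The 29 called with everolimus were 13 without vehicle replicate 1, 12 without vehicle replicate 3 and 10 without everolimus replicate 1. The 33 between the drugs were 11 without MLN0128 replicate 1, 11 without everolimus replicate 3 and 2 when only these groups were fitted.

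Of 19 tested genes of glutathione supply, synthesis and breakdown beyond the 10, 9 fell with MLN0128, 4 with everolimus, and none rose with either. Of all tested genes 17.1% fell with MLN0128 and 6.05% with everolimus. *Slc7a11*, the cystine carrier that feeds cysteine to glutathione, was at 6.94, 11.4 and 13.3 FPKM in vehicle tumors, 0.106, 0.0404 and 0.198 with MLN0128 and 0.167, 0.534 and 1.06 with everolimus, with log2 fold changes of -3.33 (limma adjusted p = 9.81e-06) and -2.86 (limma adjusted p = 3.84e-05). In normal liver it had 4, 0 and 0 reads. *Slc3a2*, its partner chain, fell by 1.61 with MLN0128 and by 0.81 with everolimus. *Cth*, which makes cysteine from cystathionine, was at -2.12 with MLN0128, where it fell, and at -0.35 with everolimus, where it did not pass. *Gsr*, which regenerates reduced glutathione, was at 49.9, 58.4 and 64.3 FPKM in vehicle tumors, 23.1, 21 and 30.9 with MLN0128 and 39.6, 42.2 and 38.4 with everolimus. It fell with MLN0128 (-1.18, limma adjusted p = 0.000667) and did not pass with everolimus (-0.50, limma adjusted p = 0.0859). Between the drugs, *Cth* (-1.78) and *Gsr* (-0.68) were lower in the MLN0128 group, of which the call for *Gsr* was lost in 9 of the 22 alternatives, with values from -0.83 to -0.36.

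Enzymes that use glutathione and thioredoxin were read next. Beside the counts below, 17.1% of all tested genes fell and 14.9% rose with MLN0128, and 6.05% fell and 3.78% rose with everolimus. Of 17 other glutathione peroxidases, glutaredoxins and peroxiredoxins, with superoxide dismutases and catalase, 8 fell with MLN0128 and 2 with everolimus. *Gpx2* was at 1.32, 0.721 and 1.97 FPKM in vehicle tumors and had 0, 0 and 5 reads with MLN0128 and 0, 8 and 1 with everolimus, and it fell with both. Its log2 fold changes of -1.16 and -1.15 are set by the pseudocount, and were -6.49 and -5.61 at the lowest among the alternatives. *Prdx1*, which *Srxn1* serves, fell by 0.90 and by 0.69. *Prdx6* fell with MLN0128 (-0.72) and was at -0.12, not called, with everolimus. Of 11 other genes of the thioredoxin system 4 fell with MLN0128, among them *Txn1* (-0.68) and *Txn2* (-0.88), and 0 with everolimus by limma's test. Of 19 genes of selenoprotein synthesis and other selenoproteins 9 fell with MLN0128 and 2 with everolimus. The 2 that rose with MLN0128, named after their values were seen, were *Secisbp2* (0.74) and *Sepsecs* (0.57), which insert selenocysteine and make its transfer RNA. Of 15 other ferroptosis genes 6 fell with MLN0128, and 4 fell and 1 rose with everolimus. Among them *Aifm2*, the ferroptosis suppressor known as FSP1, fell with everolimus (-1.13) and was at -0.42, not called, with MLN0128. The drugs differed by 0.71, not called (limma adjusted p = 0.0959), and the call with everolimus was lost in 4 of the 22 alternatives.

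Of 30 other NRF2 target genes 17 fell with MLN0128 and 8 with everolimus, beside 17.1% and 6.05% of all tested genes. None of the 30 rose. The glutathione transferase *Gsta1* fell by 3.21 and by 2.86, and the carbonyl reductase *Cbr1* fell by 2.39 and by 1.42. In vehicle-treated tumors 8 of these 30 were higher and 18 lower than in normal liver, beside 36.0% and 33.0% of all tested genes. With plain library totals 11 were higher and 8 lower, and the median over all tested genes moved from 0.06 to 0.62.

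The RNA of NRF2 itself passed the test with neither drug. *Nfe2l2* was at 17.7, 16.2 and 17.7 FPKM in vehicle tumors, 17.0, 19.1 and 16.5 with MLN0128 and 20.8, 22.2 and 22.4 with everolimus. MLN0128 overlapped vehicle (0.02, limma adjusted p = 0.878), and all everolimus libraries were above vehicle without passing the test (0.33, limma adjusted p = 0.0658). *Keap1*, its inhibitor, and *Bach1*, a repressor of its targets, did not pass with either drug, at 0.13 and 0.15 with MLN0128 and 0.27 and 0.21 with everolimus. Against normal liver they were lower in vehicle-treated tumors, by -0.51 and -0.67, but turned to 0.34 and 0.20 with plain library totals. Of all 13 genes of NRF2 and its regulators 5 fell with MLN0128, and 3 fell and 1 rose with everolimus. Of all tested genes 17.1% fell with MLN0128, and 6.05% fell and 3.78% rose with everolimus. *Sqstm1*, whose protein p62 binds KEAP1, fell by 1.43 and by 1.42.

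ATF4, the factor above *Chac1*, has a wider set of targets in amino acid supply and stress. Of 28 tested genes of this list 23 fell with MLN0128 and none rose, 3 fell and 1 rose with everolimus, and 17 were lower in MLN0128 than in everolimus tumors. Of all tested genes 17.1% fell and 14.9% rose with MLN0128, and 6.05% fell and 3.78% rose with everolimus. Between the drugs 5.54% were lower with MLN0128. The medians of the list were -1.42 with MLN0128, -0.47 with everolimus and -1.07 between the drugs. Those of all tested genes were -0.01, 0.03 and -0.03. *Atf4* was at 148, 168 and 130 FPKM in vehicle tumors, 33.8, 35.6 and 30 with MLN0128 and 96.9, 86.3 and 141 with everolimus. It was below every other tumor with MLN0128 (-2.13, limma adjusted p = 5.41e-05), did not pass with everolimus (-0.48, limma adjusted p = 0.127) and differed between the drugs (-1.65, limma adjusted p = 0.00177). *Ddit3*, the stress factor CHOP, was at 13.3, 14.3 and 13.1 FPKM in vehicle tumors, 3.14, 2.52 and 2.86 with MLN0128 and 4.79, 4.67 and 8.39 with everolimus. It fell with MLN0128 (-1.93, limma adjusted p = 9.82e-05) and with everolimus (-1.11, limma adjusted p = 0.00585). In vehicle-treated tumors 22 of the 28 were higher than in normal liver, where 36.0% of all genes were. With the lists together, plain library totals turned 55 higher and 62 lower in that comparison into 89 and 28. The median over all tested genes moved as well, from 0.06 to 0.62.

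**Figure D4:**
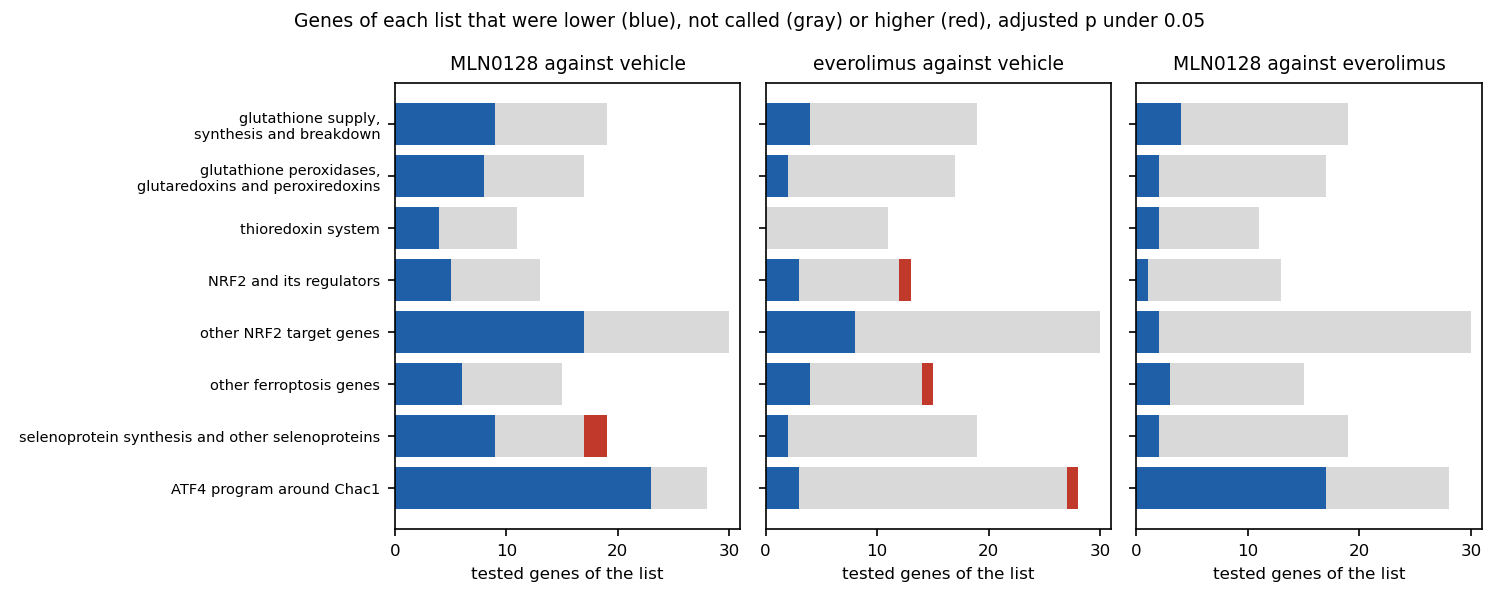
Number of tested genes of each of the 8 lists that were lower (blue), not called (gray) or higher (red) by limma's test in MLN0128 against vehicle, everolimus against vehicle and MLN0128 against everolimus. The ATF4 program has 23 lower genes in the first panel, 3 in the second and 17 in the third. Of all tested genes 17.1%, 6.05% and 5.54% were lower in these comparisons.

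Markers of other cell types moved with some of these falls. Of all tested genes 17.1% fell and 14.9% rose with MLN0128, and 6.05% fell and 3.78% rose with everolimus. The summed FPKM of 6 biliary markers was 45.4 to 99.0 in vehicle tumors, 10.7 to 29.6 with MLN0128 and 17.7 to 64.3 with everolimus, and 4 of the 5 tested fell with each drug. Erythroid markers, 6 in the table, summed to 35.2 to 88.5 in vehicle tumors, 16.1 to 40.6 with MLN0128 and 107 to 131 with everolimus. Of the 5 tested, 1 fell with MLN0128 and 2 rose with everolimus. Between the drugs 4 were lower with MLN0128, beside 5.54% of all tested genes. Of the 10 hepatocyte markers 3 fell and 2 rose with MLN0128, and 1 fell and 1 rose with everolimus. Endothelial markers (8, with sums of 15.3 to 25.7 in the tumors) and neutrophil markers (4, with sums of 1.03 to 8.20) had 0 called with either drug by limma's test, and 1 of 8 markers of stellate cells and fibroblasts rose with MLN0128. No marker was at 0 throughout a group. The part of these cells in the falls of the 10 genes was not tested.

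Likeness of pattern was measured as the root mean square difference of log2(FPKM + 1) over the 12 libraries, after centering each gene on its own mean, so that 0 is an identical pattern. *Chac1* was nearest to *Fgf21* (0.758), *Atf5* (0.855) and *Aars* (0.857), distances above those of the other genes, against a spread of 1.68 of *Chac1* itself. The distances are not scaled to that spread, which was 2.67 for *Gpx3*, 1.37 for *Srxn1* and 1.05 for *Hmox1*. For the others of the 10 it was 0.337 to 0.830. *Fgf21* was at 9.91, 9.93 and 13.6 FPKM in vehicle tumors, 0.889, 0.345 and 0.484 with MLN0128 and 3.06, 10.1 and 10.7 with everolimus. *Gpx3* was nearest to *Peg10* (0.492), an imprinted gene at 0.0287 to 0.0417 FPKM in the normal livers and at 36.5 to 134 in tumors, and then to *Bex4* and *Bex3*. *Gss* was nearest to *Slc35f6* (0.0948), *Txnrd1* to *Clptm1l* (0.116), *Gclm* to *Tmem59* (0.120), *Gclc* to *Grina* (0.224), *Nqo1* to *Ifit3b* (0.299), *Srxn1* to *Isg15* (0.407) and *Hmox1* to *Reep5* (0.416). Among the 10 themselves the closest pair was *Gclc* and *Nqo1* (0.353), and *Gclc* and *Gclm*, subunits of the same enzyme, were at 0.518. By nearness to *Gclc* among all tested genes, *Nqo1* ranked 71 and *Gclm* 1130. These distances rest on the same 12 libraries and are a description.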

How the data were processed

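RNA of mouse liver and tumors was measured in 12 libraries. Sequencing was by Novogene, and the authors deposited FPKM per gene symbol, rounded to 3 significant digits. The submitters' processing notes name GRCm38 and FastQC 0.11.7, and the aligner and counter are not given in the sources used here. Groups followed the labels, which give 3 weeks of treatment, whereas the text of the study gives 3 days for the tumors used for RNA.

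Here log2(FPKM + 1) was fitted for all 12 libraries in 1 model (limma 3.58.1, R 4.3.3, trended prior variance, 8 residual degrees of freedom), over the 14397 genes that reached 0.5 FPKM in 3 or more libraries, with Benjamini-Hochberg adjustment. The threshold was an adjusted p of 0.05, by the moderated test or by treat against a fold change of 1.5. FPKM times exon length in GENCODE M21 (GRCm38) gave whole reads, within 0.1, for 98.2% to 98.8% of values under 20 reads, where chance gives 20.0%. Depth was 17169842 to 25186095 reads, at which 3 reads on 2 kb of exon are 0.0495 to 0.144 FPKM. Those reads were therefore also tested with voom (limma), using the library sizes that the FPKM carry, which was decided after the data were seen. The other alternatives changed the pseudocount, filter, scaling, groups fitted, prior variance, replicate block and libraries included. The fit was tested on simulated data.

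Named genes were the 10, 7 regulators and partners, up to 2 genes with the smallest p per list and comparison, of which those a result turns on are printed, and the 3 genes nearest to each of the 10. The members and lists were chosen with earlier results of these data known. Replicate numbers were not taken to pair the libraries. Software included pandas 2.3.3 and matplotlib 3.10.9.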

Additional observations from a re-analysis of the deposited data

How the results depend on the processing

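Each result was recomputed under 22 alternatives, of which voom with the library sizes of the FPKM was chosen after seeing the data. The planned voom with TMM factors was not run. Of the 1320 values for the 10 genes, 1226 kept direction and call, 58 lost the call, 8 gained it and 28 changed sign, and the causes were not tested. Leaving out libraries in turn moved the number of the 10 called over 4 to 7 (vehicle against normal liver), 8 to 9 (MLN0128 against vehicle), 2 to 7 (everolimus against vehicle), 1 to 2 (between the drugs), 8 to 10 (MLN0128 against normal liver) and 7 to 7 (everolimus against normal liver). It moved the number past a fold change of 1.5 over 2 to 3, 1 to 4, 0 to 1, 1 to 1, 7 to 7 and 6 to 6, and the genes of the lists called over 109 to 117, 69 to 86, 10 to 35 and 11 to 34 in the first 4 comparisons. With plain library totals 4 of the 10 passed a fold change of 1.5 in vehicle against normal liver, 3 in MLN0128 against normal liver and 2 in everolimus against normal liver. The medians over all tested genes under that scaling were 0.62, 0.72 and 0.60. With only the 2 groups compared in the fit, 3 of the 10 were called with everolimus, and 2 genes of the lists between the drugs. With the third MLN0128 library alone the spread is taken from the other groups, so no number of genes called is given there. The 22 alternatives and the totals over them include that fit.

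Same-numbered libraries of different groups deviated together with correlations of -0.289 to 0.148 (median -0.0611, 18 pairs), against -0.287 to 0.396 (median 0.0257, 36 pairs) for different numbers, so the numbers were not taken to pair them. With the replicate number as a block, 5 of the 10 and 19 genes of the lists were called with everolimus.

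Signs changed with plain library totals in vehicle against normal liver for *Gclc* (0.68), *Gss* (0.67), *Gpx4* (0.20), *Nqo1* (0.087), *Srxn1* (0.79), *Bach1* (0.20) and *Keap1* (0.34), in MLN0128 against normal liver for *Gss* (0.35) and *Txnrd1* (0.75), in everolimus against normal liver for *Gss* (0.15) and *Hmox1* (0.55), in MLN0128 against vehicle for *Gclm* (0.12), and between the drugs for *Bach1* (0.064). Of these values those of *Gclc*, *Keap1* and *Txnrd1*, and of *Gss* against normal liver with vehicle and with MLN0128, were called. With the third MLN0128 library alone signs changed between the drugs for *Gclc* (-0.073), *Gclm* (-0.074), *Gss* (-0.0019), *Nqo1* (0.090) and *Srxn1* (0.054), against vehicle for *Bach1* (-0.11) and *Nfe2l2* (-0.055), and against normal liver for *Txnrd1* (0.015). With equal library medians *Chac1* with everolimus was at -0.11 against normal liver.

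The other changes of sign came with 1 library left out, all of them for differences that were not called. Over the libraries left out, everolimus against normal liver ran from -0.24 to 0.20 for *Chac1*, from -0.049 to 0.24 for *Txnrd1* and from -0.67 to 0.045 for *Hmox1*. Vehicle against normal liver ran from -0.47 to 0.26 for *Srxn1*, and MLN0128 against vehicle from -0.13 to 0.082 for *Gclm* and from -0.035 to 0.065 for *Nfe2l2*. Between the drugs the ranges were -0.015 to 0.23 for *Gclm*, -0.0063 to 0.13 for *Gss*, -0.63 to 0.092 for *Srxn1* and -0.19 to 0.059 for *Bach1*. Depth limits *Nqo1* and *Chac1*, which had as few as 12 and 10 reads with MLN0128.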
